A study of Mus musculus with 6 samples.

Results

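This account describes 32 genes of 1 growth programme, the transcription factor gene Myc and 31 genes for the building of ribosomes, in mouse bone marrow treated with a PI3K inhibitor. The genes were taken by symbol from a list, and all 32 were found among the 14992 genes counted and stood among the 12806 genes with enough reads to be tested. Messenger RNA was sequenced from 6 libraries. All came from whole marrow of Dnmt3a knockout mice that had been transplanted into irradiated C57/BL6 recipients, so both groups carry the knockout and the labels name no wild-type marrow. Recipients of 3 libraries, numbered 1, 2 and 3, received vehicle, and those of the other 3, numbered 1, 3 and 5, received an inhibitor of PI3K alpha and PI3K beta at 75 mg/kg for 21 days. The protocol calls the transplanted cells leukemic. The driver of the knockout, the age of the animals and the share of recipient cells left in the marrow are not given in the labels, and nothing there says that the libraries stem from separate mice. The p-values therefore cover only the spread among these 6 libraries, which may be technical in part. Library totals lay between 28198638 and 59384880 counts.

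MYC binds DNA as a dimer with MAX at short sequences called E-boxes, of which CACGTG is the best known, and genes for ribosome building are among its classical targets. A ribosome begins in the nucleolus, where RNA polymerase I copies ribosomal DNA into a long precursor, small nucleolar RNA-protein particles (snoRNPs) modify it, and many assembly factors cut and fold it into the small and the large subunit. PI3K, through AKT and mTOR, is a textbook input to this programme, and dividing marrow progenitors use it heavily.

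The E-box sequences are shown because CACGTG is a sequence that MYC and other members of its network can bind. Promoter windows of 300 bases, from 250 before to 50 after a RefSeq transcript start (GRCm38.p6), were matched by symbol for 26 of the 32 genes. Myc, Npm1, Fbl, Rrp12, Bop1 and Rrs1 had none. CACGTG, which reads the same on both strands, was present in 6 of the 26 (23.1%). It was present in 8.09% of all 27025 genes with a window and in 11.6% of the 10084 tested genes with one. Each sequence below is printed 5′ to 3′ on the strand of its gene, with the E-box in capitals.
Nop2, chr6:125131783-125131882, plus strand, the 100 bases before the start: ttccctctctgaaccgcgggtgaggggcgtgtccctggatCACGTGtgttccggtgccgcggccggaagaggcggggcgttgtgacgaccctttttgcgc
Utp20, chr10:88826765-88826789, minus strand: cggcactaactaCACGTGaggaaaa
Pes1, chr11:3963965-3963994, plus strand: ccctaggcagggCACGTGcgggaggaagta
Mybbp1a, chr11:72441355-72441376, plus strand: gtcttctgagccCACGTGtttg
Tsr1, chr11:74898092-74898121, plus strand: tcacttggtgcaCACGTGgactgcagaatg
Wdr43, chr17:71616220-71616249, plus strand: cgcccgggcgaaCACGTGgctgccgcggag

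The E-box of Nop2 began 60 bases before the start. The other 5 lay within the first transcribed bases, from 3 bases after the start in Pes1 to 41 in Mybbp1a. The related form CACGCG, or CGCGTG on the other strand, was found in 8 of the 26 genes (30.8%), against 10.5% of all genes with a window and 19.5% of the tested ones. A match describes letters in the window and does not show that MYC binds there. The 6 genes with CACGTG had a median log2 fold change (inhibitor minus vehicle) of -0.37 and the 20 without it one of -0.27. For CACGCG or CGCGTG the order was the other way, with -0.25 in the 8 genes that held it and -0.31 in the 18 that did not. Neither difference was tested.

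With the inhibitor, 29 of the 32 genes had a log2 fold change below 0, where 50% of all tested genes did, but none passed the test across all genes. The median log2 fold change (inhibitor minus vehicle) of the 32 was -0.29 against 0.000931 for all tested genes, and single values ran from -0.52 for Heatr1 to 0.21 for Npm1. In the edgeR quasi-likelihood test with adjusted p under 0.05, 0 of 32 were called, against 1.83% of all tested genes (0.633% higher and 1.19% lower). With an unadjusted p under 0.05, 9 of the 32 were lower and 0 higher, against 11.9% and 9.68% of all tested genes. In 14 of the 32 every inhibitor library lay below every vehicle library, against 16.2% of all tested genes, and in 0 of the 32 every inhibitor library lay above, against 14.4%.

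A single library stood lowest in nearly all of them. Inhibitor 1 had the lowest level of all 6 libraries in 29 of the 32 genes, where it was lowest in 21.3% of all tested genes. The exceptions were Myc, lowest in vehicle 1, Polr1a, lowest in inhibitor 5, and Npm1, lowest in vehicle 3. Levels are given as CPM, read counts scaled by library size. The median over the 32 genes of log2(CPM + 1) minus each gene's mean over the 6 libraries was 0.197, 0.175 and 0.0731 in vehicles 1, 2 and 3. It was -0.410, -0.0375 and -0.0138 in inhibitors 1, 3 and 5, so all 3 inhibitor libraries stood below all 3 vehicle libraries and inhibitors 3 and 5 only narrowly. Without inhibitor 1 the median log2 fold change was -0.16, with 25 of 32 values below 0, 4 at an unadjusted p under 0.05 and 0 called. No genes at all, members or not, were called by edgeR without inhibitor 1, and the same was true without inhibitor 3, without inhibitor 5 or without vehicle 3.

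**Figure D1:**
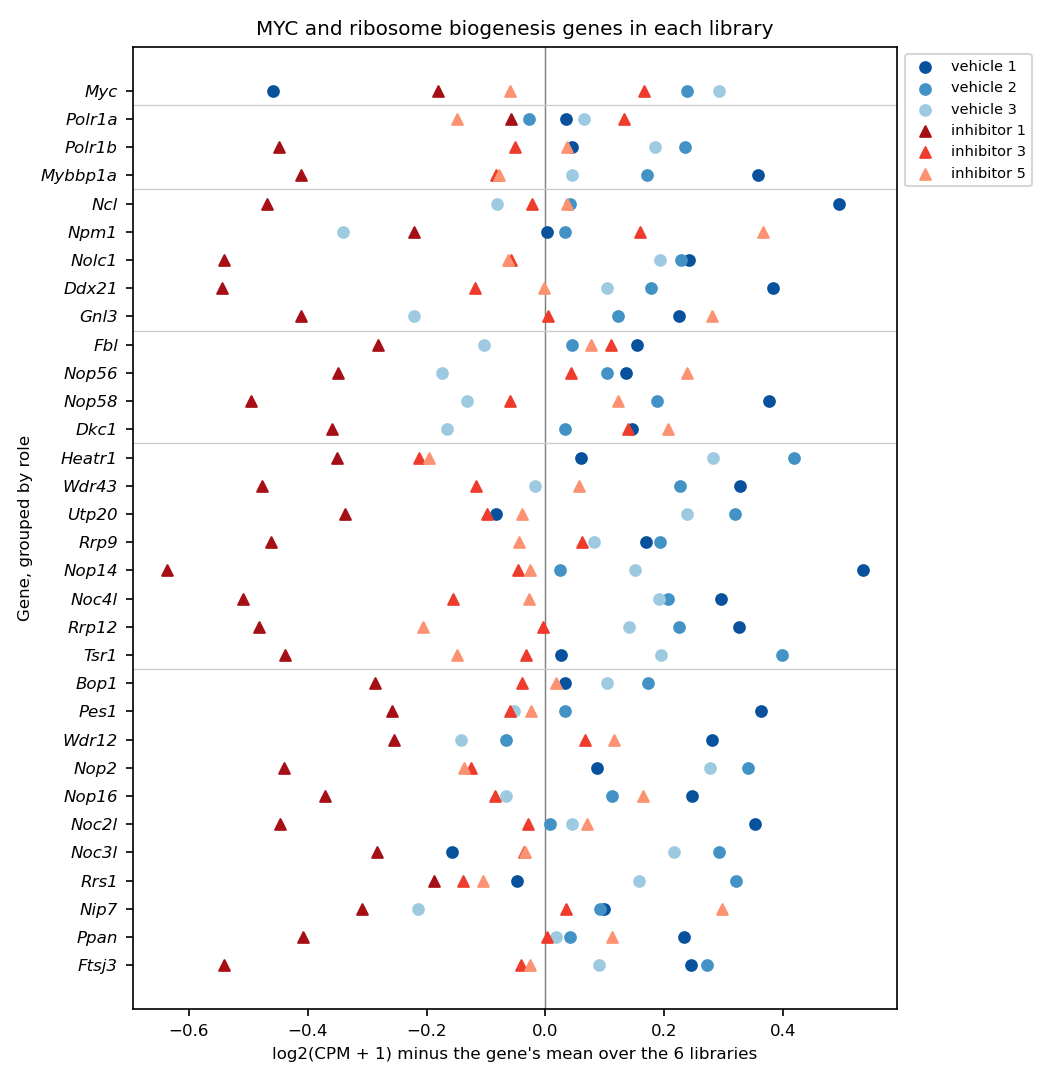
The level of each of the 32 genes in each library, as log2(CPM + 1) minus the gene's mean over the 6 libraries, with genes grouped by role. Inhibitor 1 is the lowest point in 29 rows, and the other inhibitor libraries lie close to the middle or among the vehicle libraries in most rows.

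**Figure D2:**
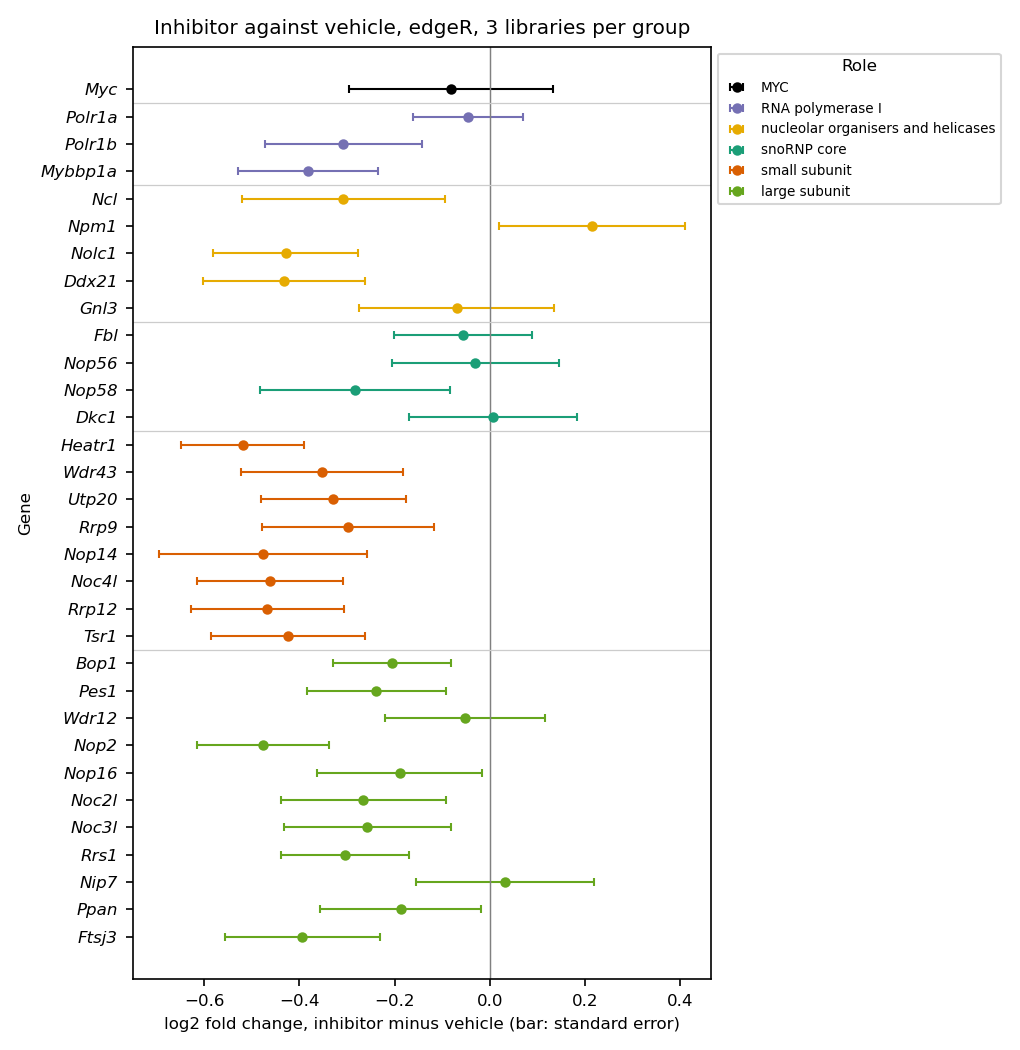
Log2 fold change, inhibitor minus vehicle, of each gene with its standard error (edgeR, 3 libraries per group), coloured by role. The values run from -0.52 for Heatr1 to 0.21 for Npm1, and 29 of 32 lie below 0.

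Myc itself (chromosome 15, 61985391 to 61990374, GRCm38) had no detectable difference between the groups. Here and below, a value is a log2 fold change with its standard error, and levels in CPM are listed in the order vehicles 1, 2 and 3, then inhibitors 1, 3 and 5. Myc stood at 49.0, 80.1 and 83.2 CPM with vehicle and at 59.6, 76.1 and 65.0 CPM with the inhibitor. Vehicle 1 was the lowest library and vehicles 2 and 3 the highest, so the inhibitor libraries lay inside the range of the vehicle ones. Its log2 fold change of -0.08 ± 0.21 (standard error of the edgeR fit, 3 libraries per group) had an edgeR adjusted p of 0.851 and a 95% interval from -0.59 to 0.42. The sign turned with the library left out: the value was -0.29 without vehicle 1 and 0.05 without vehicle 3. Per deposited gene length, which need not be that of the main transcript, Myc ranked 11th of the 32 genes. Its mean over the 6 libraries was 28.7 RPKM (CPM per kilobase of the deposited gene length).

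All 3 genes tied to RNA polymerase I had values below 0 (median log2 fold change -0.31). In 2 of the 3 every inhibitor library lay below every vehicle library, against 16.2% of all tested genes. Without inhibitor 1 the median was -0.16, and 1 of the 3 values was above 0 without inhibitor 5. Polr1a, the catalytic subunit, stood at 79.8, 76.3 and 81.4 CPM with vehicle and at 74.7, 85.4 and 70.1 CPM with the inhibitor. Its groups overlapped, with the highest library in the inhibitor group and a log2 fold change of -0.05 ± 0.12 (SE). Polr1b, the second largest subunit, stood at 27.9, 32 and 30.9 CPM with vehicle and at 19.6, 26 and 27.7 CPM with the inhibitor. Its groups did not overlap, although inhibitor 5 lay only just below vehicle 1, and the log2 fold change was -0.31 ± 0.16 (edgeR adjusted p = 0.316). Mybbp1a, a nucleolar protein that associates with RNA polymerase I and binds the MYB oncoprotein, stood at 222, 195 and 179 CPM with vehicle and at 130.0, 163 and 164 CPM with the inhibitor. Every inhibitor library lay below every vehicle library, and the log2 fold change was -0.38 ± 0.15 with an edgeR adjusted p of 0.194. Polr1a lies on chromosome 6, Polr1b on chromosome 2 and Mybbp1a on chromosome 11.

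The 5 nucleolar organisers and helicases held the most abundant transcripts per length (Npm1 and Ncl on the RPKM scale), and 4 of their 5 values were below 0 (median -0.31, 0 of 5 called). The median was -0.12 without vehicle 1 and -0.16 without inhibitor 1, with 2 of 5 values above 0 in each case, and -0.07 in limma voom with quality weights. Ncl encodes nucleolin, a main RNA-binding protein of the nucleolus, and stood at 1078, 788 and 723 CPM with vehicle and at 553, 754 and 785 CPM with the inhibitor. Vehicle 1 and inhibitor 1 were the extremes and the other 4 libraries overlapped, and the log2 fold change was -0.31 ± 0.21 with an edgeR adjusted p of 0.433. Npm1 encodes nucleophosmin, a nucleolar chaperone often mutated in human acute myeloid leukaemia, and stood at 798, 815 and 628 CPM with vehicle and at 683, 889.9 and 1027 CPM with the inhibitor. It had the highest value of the 32, at 0.21 ± 0.20 (edgeR adjusted p = 0.555), and overlapping groups. Npm1 has processed pseudogenes, and the sources used here do not say how reads matching several places were counted, so its level is uncertain.

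Nolc1 and Ddx21 had the clearest separation in this group. Nolc1, a phosphoprotein that shuttles between nucleolus and cytoplasm and chaperones snoRNPs, stood at 107, 106 and 103 CPM with vehicle and at 61.6, 86.6 and 86.3 CPM with the inhibitor. The vehicle libraries lay within a few CPM of each other and all above the inhibitor ones, and the log2 fold change was -0.43 ± 0.15 with an edgeR adjusted p of 0.166. Ddx21, an RNA helicase that couples polymerase I transcription to processing of the precursor, stood at 237, 205 and 195 CPM with vehicle and at 124, 167 and 181 CPM with the inhibitor. Its groups did not overlap either, and the log2 fold change was -0.43 ± 0.17 with an edgeR adjusted p of 0.202. Gnl3, or nucleostemin, a nucleolar GTPase of dividing cells, had overlapping groups and a value of -0.07 ± 0.20.

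Values of the genes for the 4 core snoRNP proteins lay closest to 0, with a median log2 fold change of -0.04 and overlapping groups in all 4. The median turned to 0.02 without vehicle 1 and to 0.10 without inhibitor 1, with 3 of 4 values above 0 in each case. Fbl, the methyltransferase fibrillarin of the box C/D particles, stood at 78.9, 73.1 and 65.8 CPM with vehicle and at 58.1, 76.5 and 74.8 CPM with the inhibitor, with a value of -0.06 ± 0.14. Nop56, a scaffold of the same particles, ranged from 98.7 to 123 CPM with vehicle and from 87.4 to 132 CPM with the inhibitor, with a value of -0.03 ± 0.18. Nop58, its partner, had the lowest value of the 4 at -0.28 ± 0.20 (edgeR adjusted p = 0.442). Dkc1, the pseudouridine synthase dyskerin of the box H/ACA particles, had a value of 0.01 ± 0.18, with vehicles at 93.0, 86.0 and 74.8 CPM and inhibitors 1, 3 and 5 at 65.3, 92.5 and 97.1 CPM. In each of Fbl, Nop56, Nop58 and Dkc1, inhibitor 1 was the lowest library, while inhibitors 3 and 5 lay within or above the vehicle range.

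The 8 small subunit factors had the lowest median of the role groups, -0.44, with all 8 values below 0. In 6 of the 8 every inhibitor library lay below every vehicle library, against 16.2% of all tested genes. All 8 values were below 0 in each of the 14 alternative fits, and the median without inhibitor 1 was -0.30. Heatr1 (chromosome 13, 12395027 to 12440289, GRCm38), a large scaffold protein of the small subunit processome that also serves polymerase I transcription, had the lowest value of the 32. It stood at 86.1, 111 and 101 CPM with vehicle and at 64.5, 71.1 and 72.0 CPM with the inhibitor. The 3 inhibitor libraries lay close together and all below vehicle 1, the lowest vehicle library. Its log2 fold change was -0.52 ± 0.13, with an edgeR adjusted p of 0.0807. In the authors' deposited table, for which the sources used here give no test, Heatr1 was the 1 gene of the 32 with an adjusted p under 0.05, at 0.0266. That table calls 10.8% of its 13809 genes with an adjusted p, 4.24% higher and 6.57% lower.

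The next lowest values among the small subunit factors belonged to Nop14, Rrp12, Noc4l and Tsr1. Nop14 and Noc4l, partners in one assembly complex, had values of -0.48 ± 0.22 and -0.46 ± 0.15. Noc4l stood at 40.4, 37.9 and 37.5 CPM with vehicle and at 22.7, 29.2 and 32 CPM with the inhibitor, while Nop14 stood at 46.1, 32.1 and 35.1 CPM and at 19.9, 30.5 and 31.0 CPM. In Nop14 inhibitors 3 and 5 lay only just below vehicle 2, whereas in Noc4l the gap was wider. Rrp12, which takes part in export of pre-ribosomes, stood at 32.5, 30.2 and 28.4 CPM with vehicle and at 18.1, 25.6 and 22.1 CPM with the inhibitor (value -0.47 ± 0.16, edgeR adjusted p = 0.153). Tsr1, a late factor that keeps the unfinished small subunit from starting translation, stood at 32.8, 42.7 and 36.9 CPM with vehicle and at 23.5, 31.4 and 28.9 CPM with the inhibitor (value -0.42 ± 0.16, edgeR adjusted p = 0.191). Groups did not overlap in any of these 4 genes, but 32.3% of the exon bases of Tsr1 also belong to exons of Srr, and the library kit does not mark strand, so reads of the pair cannot be told apart there.

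Wdr43, Utp20 and Rrp9 complete the small subunit group. Wdr43, a processome component that also promotes polymerase I transcription, had a value of -0.35 ± 0.17, and inhibitor 5 (73.9 CPM) lay above vehicle 3 (70.1 CPM). Utp20, a very large processome protein, had a value of -0.33 ± 0.15, and inhibitor 5 (38.4 CPM) lay above vehicle 1 (37.2 CPM). Rrp9, the U3 snoRNP protein, stood at 16.5, 16.8 and 15.5 CPM with vehicle and at 10.3, 15.3 and 14.1 CPM with the inhibitor. Its groups did not overlap, but inhibitor 3 lay only just below vehicle 3, and the value was -0.30 ± 0.18 (edgeR adjusted p = 0.375).

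Of the 11 large subunit factors, 10 had values below 0, with a median of -0.24 and 0 called, against 1.83% of all tested genes called. In 4 of the 11 every inhibitor library lay below every vehicle library, against 16.2% of all tested genes. The median of the 11 was -0.11 without inhibitor 1, -0.15 without vehicle 1 and -0.10 in limma voom with quality weights. Nop2 (chromosome 6, 125131909 to 125144753, GRCm38), a methyltransferase of the large subunit RNA and the gene with the E-box upstream of its start, had the lowest value. It stood at 47.9, 57.3 and 54.7 CPM with vehicle and at 32.9, 41.2 and 40.9 CPM with the inhibitor. All inhibitor libraries lay clearly below all vehicle libraries, and the log2 fold change was -0.48 ± 0.14 with an edgeR adjusted p of 0.107. Ftsj3, a methyltransferase that acts on the precursor RNA, stood at 87.3, 89.0 and 78.3 CPM with vehicle and at 50.2, 71.4 and 72.2 CPM with the inhibitor. Its groups did not overlap, and the value was -0.39 ± 0.16 (edgeR adjusted p = 0.219). Rrs1, which brings the 5S particle into the large subunit, stood at 31.2, 40.5 and 36.1 CPM with vehicle and at 28.2, 29.2 and 29.9 CPM with the inhibitor, with a value of -0.30 ± 0.13 (edgeR adjusted p = 0.245). In Rrs1 inhibitor 1 was barely lower than the other inhibitor libraries.

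The Bop1, Pes1 and Wdr12 proteins form one complex that is needed to process the large subunit RNA. In 1 of their 3 genes every inhibitor library lay below every vehicle library, against 16.2% of all tested genes. Bop1 stood at 50.2, 55.4 and 52.8 CPM with vehicle and at 40.0, 47.7 and 49.7 CPM with the inhibitor, without overlap and with a value of -0.20 ± 0.12. Pes1 stood at 109, 86.5 and 81.4 CPM and at 70.5, 81.0 and 83.0 CPM, with overlap and a value of -0.24 ± 0.15. Wdr12 stood at 44.2, 34.5 and 32.7 CPM and at 30.2, 38.0 and 39.3 CPM, with a value of -0.05 ± 0.17. In Wdr12, inhibitors 3 and 5 lay between vehicle 1 and the other 2 vehicles, and differences between the 3 genes were not tested.

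The other 5 large subunit genes had overlapping groups and values between -0.27 and 0.03. Noc2l and Noc3l, partners in large subunit maturation, had values of -0.27 ± 0.17 and -0.26 ± 0.18, but 20.9% of the exon bases of Noc2l are shared with exons of Samd11. Nop16 and Ppan, both assembly factors, had values of -0.19 ± 0.17 each. Nip7, which binds the precursor RNA, had a value of 0.03 ± 0.19, with vehicles at 33.8, 33.6 and 27.0 CPM and inhibitors 1, 3 and 5 at 25.2, 32.3 and 38.9 CPM. The extremes of Nip7 were thus both inhibitor libraries.

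Levels per length differed widely between the genes of one pathway. On the RPKM scale, as means over the 6 libraries, Npm1 led at 469.7 and was followed by Ncl at 94.5, Fbl at 61.4, Nop56 at 59.4, Nop58 at 54.5 and Mybbp1a at 42.6. Transcripts for nucleolar and snoRNP proteins thus held the top 5 places. The lowest were the large assembly factors Rrp12 at 6.06, Noc3l at 4.54 and Utp20 at 4.53 RPKM.

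Fold change also went with gene length. Across the 32 genes the Spearman correlation of log2 fold change with the deposited gene length (1159 to 8831 bases) was -0.42, and across all 12806 tested genes it was -0.15. Both are descriptions over genes that share the same 6 libraries. In the shortest quartile of all tested genes the median log2 fold change was 0.11 and the 5 members there had -0.19. In the longest quartile all genes had -0.04 and the 5 members -0.33. In the 2 quartiles between them the members had -0.27 (12 genes) and -0.33 (10 genes) against -0.01 and -0.04 for all genes. The median of the 32 genes was thus lower than that of all genes in each quartile, and the part of length in single fold changes was not tested.

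**Figure D3:**
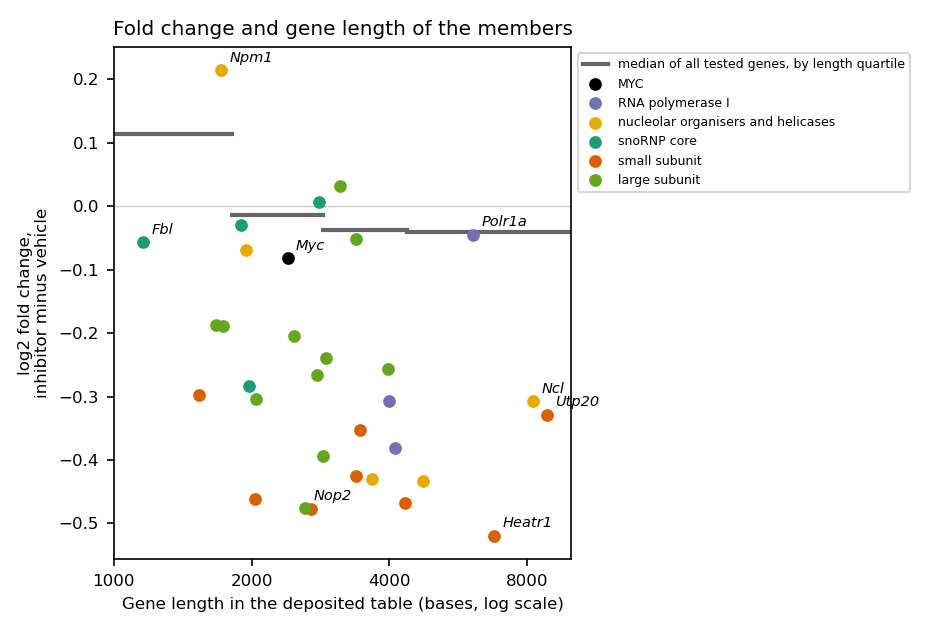
Log2 fold change, inhibitor minus vehicle, against the deposited gene length in bases (log axis) for each of the 32 genes, with the median of all tested genes in each length quartile. The median of the members lies below that of all tested genes in each of the 4 quartiles.

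Genes of the same pathway outside the 32 were read from 9 further lists. Factors that modify, process and assemble ribosomes also had most values below 0, with a median closer to 0 than that of the 32. Of 126 tested genes of 5 lists (other RNA polymerase I, other snoRNP, other small subunit, other large subunit and nuclear exosome), 94 had values below 0, with a median of -0.14. With an unadjusted p under 0.05, 23 of them were lower and 5 higher, against 11.9% and 9.68% of all tested genes. In the adjusted test 1 of the 126 passed, against 1.83% of all tested genes. That gene was Rrp1b, a nucleolar partner of protein phosphatase 1, listed here with the small subunit although it is also known from large subunit precursors. Rrp1b fell from 41.5, 36.3 and 39.3 CPM with vehicle to 23.2, 24.9 and 25.9 CPM with the inhibitor, a log2 fold change of -0.66 ± 0.12 with an edgeR adjusted p of 0.0463. Its adjusted p was between 0.0697 and 0.204 with vehicle 2, vehicle 3 or any 1 inhibitor library left out, and 0.0210 without vehicle 1.

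The remaining small subunit genes had a median of -0.18 over 42 tested genes, 34 of them below 0 and 15 without overlap on the lower side, against 16.2% of all tested genes. Without inhibitor 1 that median was -0.10. After Rrp1b, the smallest p-values belonged to Utp15, a processome protein, at -0.42 ± 0.13, and Bysl, the late factor bystin, at -0.44 ± 0.13 (edgeR adjusted p = 0.124 for each). The remaining large subunit genes had a median of -0.19 over 45 tested genes, 36 of them below 0 and 0 called, and without inhibitor 1 that median was -0.08. Ccdc86, a nucleolar protein also named cyclon, stood at 46.6, 33.1 and 26.7 CPM with vehicle and at 14.6, 16.7 and 18.6 CPM with the inhibitor. It had the lowest value of any assembly gene read here, -1.09 ± 0.22 (edgeR adjusted p = 0.0583), and its highest level in vehicle 1. Urb2 and Ddx24, both large subunit factors, had values of -0.50 ± 0.13 and -0.46 ± 0.13 with adjusted p of 0.0860 and 0.106.

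The remaining 13 RNA polymerase I genes had 8 values above 0, a median of 0.09 and 0 calls, and the median was -0.06 without vehicle 1 and -0.03 in limma voom with quality weights. Polr1d, a subunit shared with RNA polymerase III, had a value of 0.33 ± 0.12, and Twistnb, the older symbol of subunit Polr1f, 0.35 ± 0.13, both with every inhibitor library above every vehicle library. Rrn3, the initiation factor that links polymerase I to growth signals, had -0.34 ± 0.14, with 49.3, 56.4 and 49.4 CPM with vehicle and 34.9, 43.4 and 44.4 CPM with the inhibitor. The adjusted p of Polr1d, Twistnb and Rrn3 lay between 0.167 and 0.211. The remaining snoRNP genes had a median of -0.08 over 12 genes, with Naf1, an assembly factor of H/ACA particles, at -0.40 ± 0.13, Pih1d1, part of the R2TP chaperone complex, at 0.40 ± 0.14, and Shq1, another H/ACA chaperone, at -0.38 ± 0.19. The snoRNP median turned to 0.03 without inhibitor 1, with 8 of 12 values above 0, and to 0.02 in limma voom with quality weights. The exosome and trimming genes had a median of -0.10 over 14 genes, led by Exosc10 and Dis3, its nucleases, at -0.33 each, and C1d, a cofactor, at 0.34. The exosome median turned to 0.03 without vehicle 1, 0.02 without inhibitor 1 and 0.06 in limma voom with quality weights. None of these snoRNP and exosome genes was called.

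Host transcripts of small nucleolar RNAs had values on the other side of 0, with 7 of 8 above it, a median of 0.47 and 0 called. Over the 14 alternative fits between 5 and 8 of these 8 were above 0, and the median was 0.24 without inhibitor 5 and 0.31 without vehicle 3. Snhg6 stood at 15.7, 13.2 and 8.69 CPM with vehicle and at 17.2, 19.2 and 27.1 CPM with the inhibitor, a value of 0.76 ± 0.27 (edgeR adjusted p = 0.166). Snhg12 and Snhg8 had values of 0.61 each, with adjusted p of 0.210 and 0.240. These transcripts are short, with a median deposited gene length of 695.5 bases against 2834 for the 32 genes. Of the 32, 8 carry 23 snoRNA genes within them on the same strand, and reads of the 2 kinds of RNA were not separated here. Exons of 17 of the 32 genes overlap an exon of another gene, though only in Tsr1 and Noc2l over more than 10% of exon bases.

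Genes of the wider MYC-MAX network, with MYC relatives as well as the Mxd genes, Mxi1 and Mnt among them, also had values above 0. Of 11 tested genes of the MYC-MAX network, all 11 were above 0 in the edgeR fit over 6 libraries (median 0.39, 0 called), while 9 were above 0 in limma voom with quality weights and 10 without vehicle 1. Mlxip, which encodes the glucose sensor MondoA, stood at 70.2, 78.7 and 91.0 CPM with vehicle and at 124, 119 and 125 CPM with the inhibitor (0.62 ± 0.13, edgeR adjusted p = 0.0593). Max, the shared dimer partner, stood at 156, 186 and 186 CPM with vehicle and at 298, 279 and 215 CPM with the inhibitor (0.58 ± 0.16, edgeR adjusted p = 0.0981). Mycl, a MYC relative, stood at 1.74, 2.40 and 2.07 CPM with vehicle and 4.03, 3.83 and 4.02 CPM with the inhibitor (0.94 ± 0.23, edgeR adjusted p = 0.0791). In 4 of the 11 genes, Mlxip, Max and Mycl among them, every inhibitor library lay above every vehicle library, against 14.4% of all tested genes.

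Of 30 further MYC targets, nearly all outside ribosome building, 22 had values below 0 (median -0.09). In this list 1 was called, lower, against 1.19% of all tested genes called lower. Mrto4 stands in this list and among the remaining large subunit genes and is counted in both. The median was -0.03 without inhibitor 1, and -0.14 without vehicle 1, -0.18 without vehicle 3 and -0.20 without inhibitor 5. Mthfd2, a mitochondrial enzyme of the folate cycle that is also a target of ATF4, fell from 70.1, 77.3 and 77.2 CPM with vehicle to 47.4, 47.6 and 48.9 CPM with the inhibitor. Its libraries were tight within each group, and the log2 fold change was -0.64 ± 0.10 with an edgeR adjusted p of 0.0403. Without vehicle 1 its adjusted p was 0.00934, and with any other library left out it was between 0.0721 and 0.194. Shmt2, the mitochondrial serine enzyme that acts just before it, had -0.69 ± 0.16 (edgeR adjusted p = 0.0758), and Ccnd2, cyclin D2, had -0.73 ± 0.14 (edgeR adjusted p = 0.0537). In 8 of the 30 genes, Mthfd2, Shmt2 and Ccnd2 among them, every inhibitor library lay below every vehicle library, against 16.2% of all tested genes. In 1 of the 30 every inhibitor library lay above, against 14.4%.

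**Figure D4:**
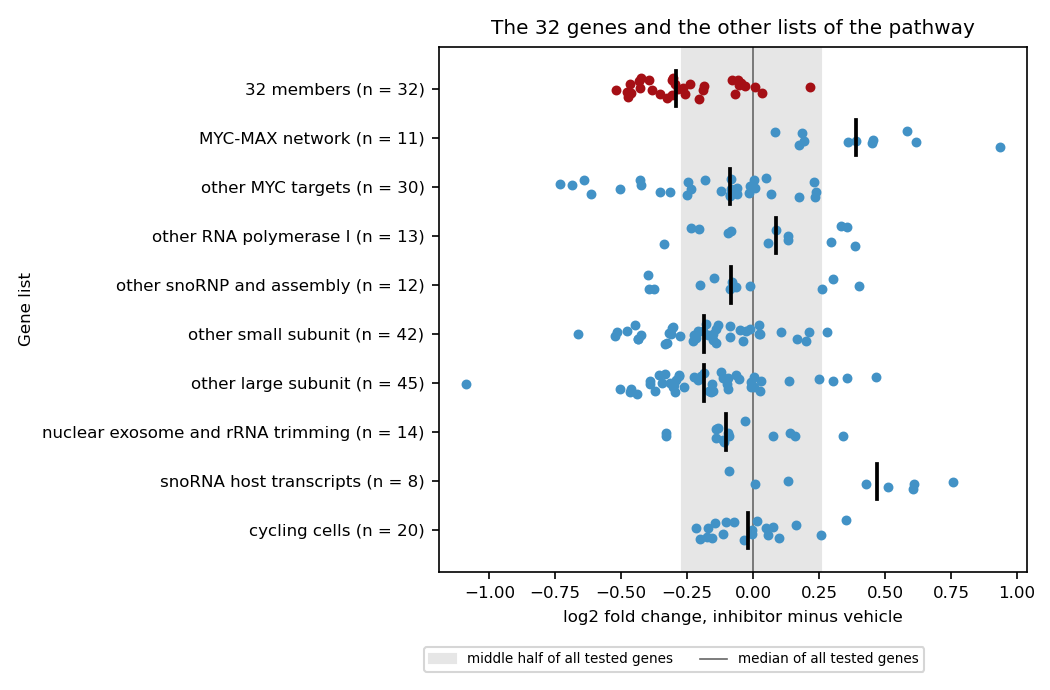
Log2 fold change, inhibitor minus vehicle, of every tested gene in the 32 and in 9 further lists of the pathway, with a black bar at each list's median. The 32 genes have their median at -0.29, the MYC-MAX network at 0.39 and the cycling cell genes at -0.02, and the grey band marks the middle 50% of all tested genes.

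Genes of dividing cells had values on both sides of 0. Of 20 tested, 12 were below 0 (median -0.02) and 0 were called, and without inhibitor 1 the median was 0.05. Pcna, the replication clamp, had a value of 0.35 ± 0.19, Cdk1, the mitotic kinase, one of 0.26 ± 0.14, and Plk1, another mitotic kinase, one of -0.20 ± 0.14. The groups overlapped in Pcna, Cdk1 and Plk1. In 1 of the 20, Mki67 (-0.17 ± 0.14), every inhibitor library lay below every vehicle library, against 16.2% of all tested genes.

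Markers of marrow cell types moved with the groups and with the libraries. The calls below stand against 0.633% of all tested genes called higher and 1.19% called lower. Summed over 14 macrophage genes, vehicles 1, 2 and 3 held 8136, 2269 and 2523 CPM and inhibitors 1, 3 and 5 held 892, 1129 and 987 CPM, and 5 of 14 were called lower. Summed over 10 neutrophil late granule genes, they held 40551, 65838 and 59941 CPM and 124735, 114722 and 100970 CPM, and 1 of 10 was called higher. Inhibitor 1, the library lowest in most of the 32 genes, was thus also the lowest in macrophage and the highest in late granule transcripts. Primary granule genes summed to between 2539.7 and 4081 CPM with vehicle and between 5924 and 6698 CPM with the inhibitor (1 of 5 higher). Stem and progenitor genes summed to between 189 and 229.8 CPM and between 310.0 and 326 CPM (2 of 11 called higher). B-cell genes summed to between 48.9 and 123 CPM and between 177 and 521 CPM (2 of 11 called higher). Not every gene of these lists went that way. In 2 of the 11 stem and progenitor genes every inhibitor library lay below every vehicle library, against 16.2% of all tested genes. Of the 11 B-cell genes, 1 had a value below 0. T and NK genes summed to between 90.3 and 138 CPM and between 57.7 and 75.9 CPM (1 of 8 lower). Erythroid, plasma cell and stromal sums were all highest in vehicle 1, with 0 called. Inhibitor 1 was also the lowest library in the erythroid sum, at 998 CPM against 1602 to 5309 CPM in the other 5 libraries, and in the stromal sum, at 225 CPM. No marker was at 0 in any library. The 10 most abundant genes took 6.45% to 9.26% of counts with vehicle and 12.9% to 13.9% with the inhibitor. The part of cell makeup in the values of the 32 genes was not tested, and in whole marrow fewer cells of a type and less RNA per cell cannot be told apart.

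Which of the 32 were called depended on the test. The DESeq2 Wald test called Heatr1 (adjusted p = 0.0169) and Nop2 (0.0480), both lower, 2 of 32 against 12.1% of all genes (4.91% higher and 7.24% lower). Limma voom with quality weights gave vehicle 1 a weight of 0.161 and inhibitor 3 one of 4.4, against 0.633 and 0.928 for inhibitors 1 and 5. It called Heatr1, Nop2, Rrs1, Utp20, Noc4l and Tsr1, all lower, 6 of 32 against 22.3% of all genes (10.7% higher and 11.6% lower). In that fit the median of the 32 was -0.17. EdgeR without vehicle 1 called Heatr1 (adjusted p = 0.0193) and Nop2 (0.0437), both lower, 2 of 32 against 7.99% of all genes (3.1% higher and 4.89% lower). Heatr1 and Nop2 had values below 0 in every fit tried, as most of the 32 did. The values lay between -0.61 and -0.43 for Heatr1 and between -0.55 and -0.37 for Nop2.

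**Figure D5:**
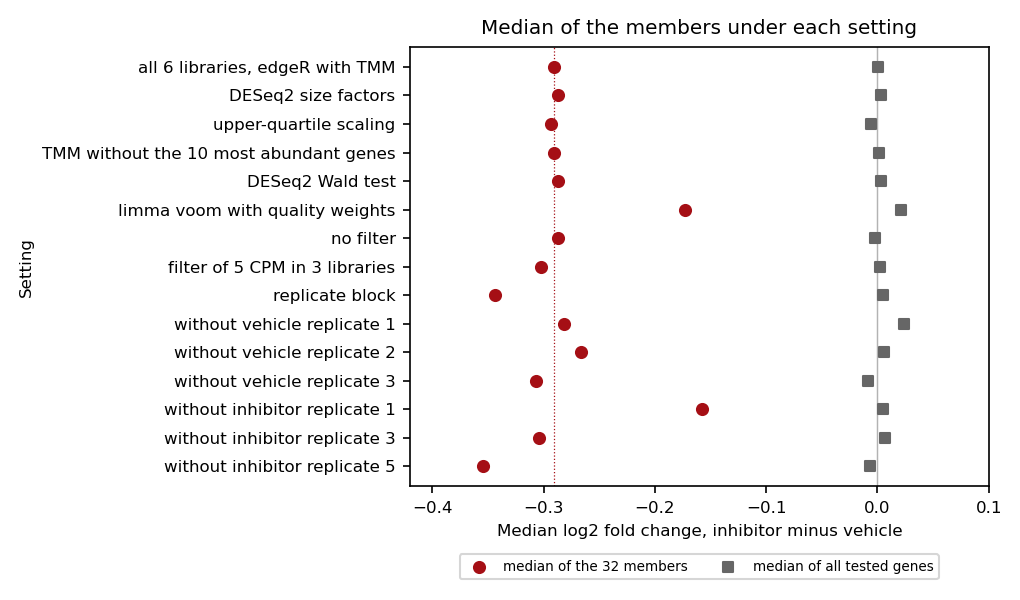
Median log2 fold change, inhibitor minus vehicle, of the 32 genes (circles) and of all tested genes (squares) in the edgeR fit over 6 libraries and in 14 alternatives. The median of the 32 lies between -0.35 without inhibitor 5 and -0.16 without inhibitor 1, while that of all genes stays close to 0.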

How the data were processed

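RNA of 6 marrow libraries was purified with a column kit, made into cDNA with SMART-Seq v4 and into libraries with Nextera XT, per the labels' protocols; this chemistry does not mark strand. The submitters' processing notes name STAR, featureCounts and mm10, and the sources used here give no versions. The authors deposited raw read counts per gene. The same deposited table holds gene lengths and the authors' comparison as a ratio (fold change), a log2 fold change, p-values and adjusted p-values.

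Samples were grouped by the treatment label. Library totals lay between 28198638 and 59384880 counts. The test was edgeR 4.0.16 (R 4.3.3) after filterByExpr, which left out 2186 genes, and TMM: glmQLFit and glmQLFTest on group, Benjamini-Hochberg adjusted over 12806 genes. The biological coefficient of variation was 25.2%. Steps were tested on simulated data with changes larger than any of the 32 genes had, so that test does not cover changes of their size. No libraries were duplicates: the closest pair, vehicles 2 and 3, had a chi-square per degree of freedom of 31.6. Alternatives were other scalings (DESeq2 size factors, upper quartile, TMM without the 10 most abundant genes), DESeq2 1.42.0, limma 3.58.1 voom with quality weights, other filters, an adjusted p under 0.10, a replicate block and each library left out. Their use on the further lists was chosen after seeing the data.

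The members and lists were chosen with earlier results of these data known. All 32 members are named, and in each further list every called gene, otherwise filled to the 3 smallest p-values. A few more genes, such as Mki67, are named besides. Of the listed symbols, 11 were not matched in the table and were not analysed here. Positions come from GENCODE (GRCm38), promoters from RefSeq (GRCm38.p6).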

Additional observations from a re-analysis of the deposited data

How the results depend on the processing

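The median log2 fold change of the 32 genes stayed below 0 in all 14 alternative fits. It ran from -0.355 to -0.158 over the fits that left out 1 library, the latter without inhibitor 1. Over those fits the number of the 32 called ran from 0 to 2. The number of the 32 with every inhibitor library below every vehicle library ran from 12 to 19. The share of all tested genes with that order ran from 17.8% to 22.5%. Among all genes, 0 to 401 were called higher and 0 to 633 lower. The main counts were 81 higher and 153 lower. An adjusted p under 0.10 gave 422 higher and 634 lower with 1 of the 32 called (Heatr1), DESeq2 628 and 926 with 2, and limma voom with quality weights 1374 and 1483 with 6. The cause of these differences was not tested.

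Among single genes, quality weights turned the sign of Polr1a (0.0493), Gnl3 (0.0481), Fbl (0.0858), Nop56 (0.0594) and Wdr12 (0.134), and a filter of 5 CPM in 3 libraries that of Dkc1 (-0.00519). Leaving out 1 library turned the sign of 8 genes, with values from -0.288 to 0.0507 for Myc, -0.122 to 0.0197 for Polr1a, -0.242 to 0.107 for Gnl3, -0.123 to 0.0678 for Fbl, -0.164 to 0.126 for Nop56, -0.136 to 0.0905 for Wdr12, -0.0956 to 0.174 for Dkc1 and -0.125 to 0.188 for Nip7.

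Replicate numbers 1 and 3 occur in both groups. The deviations of same-numbered libraries correlated at -0.514 and -0.103, and those of differently numbered ones at between -0.476 and 0.505. Deviations were centred within each group of 3 libraries, so these values cannot decide whether the numbers mark pairs. The numbers are read here as names and not as a pairing. The other numbers occur in 1 group only. With the number as a replicate block, the comparison therefore rested on the libraries numbered 1 and 3 in each group. In that fit 0 genes were called higher and 7 lower, and the median of the 32 was -0.344 with 0 called. The signs of Myc (0.0766), Dkc1 (-0.102) and Nip7 (-0.0808) turned. Rrp1b and Mthfd2 were not called with the block (edgeR adjusted p = 0.399 and 0.452). Because the block fit compared fewer libraries than the main fit, its missing calls and turned signs cannot decide whether the main results hold.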
